A study of Rattus norvegicus with 12 samples.

Results

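The Hippo pathway and TEAD factors were represented by 10 genes, chosen by name from the 32545 genes of the expression table: the co-activators Yap1 and Wwtr1, the transcription factor Tead1, the TEAD cofactor Vgll4, the kinases Stk3, Lats1 and Lats2, their scaffold and activators Sav1 and Mob1b, and the angiomotin family member Amotl2. All 10 passed the filter on low values. RNA was sequenced from the free walls of both ventricles, left (LV) and right (RV), of Sprague-Dawley rats at postnatal day 7, in 4 groups of 3 libraries. The volume overload (VO) groups had received a fistula between the abdominal aorta and the inferior vena cava, made by needle puncture, on postnatal day 1 and the sham groups a sham operation on the same day. The groups are called sham LV and VO LV, sham RV and VO RV, and the labels name no genotype or drug for any of them. The labels give neither the sex nor the animal behind a library, so the p-values measure the spread between these libraries.

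Hippo signalling is a kinase cascade that restrains organ growth. The kinases STK3 and STK4, with their scaffold SAV1, activate LATS1 and LATS2, which act with MOB1 proteins to phosphorylate YAP1 and WWTR1 (also called TAZ) and keep them in the cytoplasm, and unphosphorylated YAP1 and WWTR1 enter the nucleus and drive transcription with TEAD factors. In the heart the pathway is known for limiting cardiomyocyte proliferation around birth. These steps turn on phosphorylation and location, and transcript levels measure neither.

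Of the 10 genes, 3 had the largest fitted differences between groups: Yap1, Mob1b and Tead1 had lower mean transcript levels in sham LV compared with sham RV, a difference that passed the test for Yap1 and Mob1b. After VO their means were higher in the LV and lower in the RV, changes that did not pass in either ventricle alone, but the LV and RV responses differed from each other by 1.44, 1.80 and 1.59 on the log2 scale, which passed for all 3. Wwtr1 and Amotl2 showed smaller differences of the same signs that did not pass the test, and the kinases Stk3, Lats1 and Lats2, the scaffold Sav1 and the cofactor Vgll4 had no difference that passed it.

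TEAD factors bind the core motif GGAATG, written CATTCC on the opposite strand. The upstream sequences of genes whose transcript levels are described here are shown because the motif can be read in them directly, so each sequence displayed was picked for holding it. They are the 250 bases before the annotated start in RefSeq (build GRCr8), written 5′ to 3′ on the strand of the gene, with either form of the core in capitals. Yap1, Mob1b and Amotl2 are members, Ptpn14 and Ccn2 (Ctgf in the expression table) are YAP/TEAD target genes.
Yap1 (chr8:13451438-13451687, minus strand): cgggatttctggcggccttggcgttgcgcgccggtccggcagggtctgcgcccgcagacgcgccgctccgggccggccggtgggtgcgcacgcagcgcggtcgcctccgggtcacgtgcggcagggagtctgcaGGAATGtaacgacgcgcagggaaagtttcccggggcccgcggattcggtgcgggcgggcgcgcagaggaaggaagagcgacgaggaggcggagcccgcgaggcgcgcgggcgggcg
Mob1b (chr14:19649920-19650169, minus strand): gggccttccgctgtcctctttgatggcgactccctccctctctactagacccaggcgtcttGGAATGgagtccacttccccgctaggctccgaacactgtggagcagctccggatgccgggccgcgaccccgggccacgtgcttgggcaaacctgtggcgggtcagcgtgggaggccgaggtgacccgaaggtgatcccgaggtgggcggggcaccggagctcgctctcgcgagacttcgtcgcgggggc
Amotl2 (chr8:112182376-112182625, plus strand): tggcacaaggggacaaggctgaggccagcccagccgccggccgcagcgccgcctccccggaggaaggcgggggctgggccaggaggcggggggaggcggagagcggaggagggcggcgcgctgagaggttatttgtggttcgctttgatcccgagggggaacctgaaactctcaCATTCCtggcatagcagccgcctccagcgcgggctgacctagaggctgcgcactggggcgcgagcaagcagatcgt
Ptpn14 (chr13:103799244-103799493, plus strand): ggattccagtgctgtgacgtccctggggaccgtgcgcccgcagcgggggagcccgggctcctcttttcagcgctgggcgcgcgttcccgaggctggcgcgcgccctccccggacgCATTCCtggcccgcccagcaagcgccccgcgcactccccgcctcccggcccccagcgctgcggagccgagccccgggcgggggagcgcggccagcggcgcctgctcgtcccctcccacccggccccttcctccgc
Ccn2 (chr1:22624615-22624864, minus strand): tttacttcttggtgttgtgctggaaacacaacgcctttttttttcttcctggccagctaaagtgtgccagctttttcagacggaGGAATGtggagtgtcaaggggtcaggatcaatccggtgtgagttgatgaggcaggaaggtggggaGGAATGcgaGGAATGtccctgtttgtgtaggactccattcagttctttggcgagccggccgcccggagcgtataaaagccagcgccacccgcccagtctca
The motif starts 116 bases before the Yap1 start, 189 before that of Mob1b, 76 before that of Amotl2 and 135 before that of Ptpn14, and Ccn2 holds 3 copies, at 166, 101 and 92 bases. RefSeq promoters matched 7 of the 10 members with 9 windows in all, as Vgll4 has 3, and 5 of the 9 held the core: those of Yap1, Mob1b, Amotl2 and Sav1 and 1 of the 3 of Vgll4. The windows of Wwtr1 and Lats1 held none. The core was in 5 of the 15 windows matched to the list of YAP/TEAD targets, which counts Amotl2 again, and in 4 of 9 matched to a list of muscle genes. Tead1, Lats2 and Stk3 had no matching entry. Across all 33469 rat promoter windows of that length, 12.1% held the core in either orientation. Base composition varied among these windows. The GC content was 76.0% for Yap1, 68.4% for Mob1b, 69.6% for Amotl2 and 79.2% for Ptpn14, but 53.2% for Ccn2 and 55.6%, 72.4% and 55.2% for the Vgll4 windows, where the median over all windows was 51.2%. A match of 6 letters is a description of the sequence and not a bound site.

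Yap1 (ENSRNOG00000005933, chromosome 8, 6135493 to 6203579, minus strand in the table's annotation, whose build is not named) encodes the main transcriptional effector of the pathway. Levels are given as deposited FPKM, fragments scaled to counted gene length and to a factor of each library. Its FPKM was 17.1, 17.2 and 22 in the sham LV libraries and 46.6, 32.7 and 31.8 in the sham RV libraries. It was 29.9, 36.6 and 36.9 in VO LV and 25.2, 31.4 and 17.9 in VO RV. The sham LV libraries all lay below the sham RV and VO LV libraries, and the VO RV libraries all lay below the sham RV libraries, the nearest pair being 31.4 and 31.8. The group means were 18.8 ± 2.79 in sham LV and 34.5 ± 3.92 in VO LV, against 37.0 ± 8.27 in sham RV and 24.8 ± 6.77 in VO RV (SD, n = 3), so that sham RV and VO LV, neighbours in that order, overlapped, as did VO RV and VO LV. On the log2 scale Yap1 was lower in sham LV, with a fitted difference from sham RV of -0.95 (SE 0.20, adjusted p = 0.0373 from limma). The rise from sham LV to VO LV was 0.86 (SE 0.20, adjusted p = 0.0612) and the change from sham RV to VO RV was -0.58 (SE 0.20, adjusted p = 0.547), and neither passed the test. The difference between these 2 responses, 1.44 (SE 0.29, adjusted p = 0.0313 from limma), passed.

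Wwtr1 (ENSRNOG00000016617, chromosome 2, 147577089 to 147693082, minus strand) encodes TAZ, the paralog of YAP1. Its FPKM was 15.95, 13.5 and 18.2 in sham LV and 20.8, 24.0 and 29.7 in VO LV, against 26.8, 22.4 and 17.2 in sham RV and 20.1, 25.8 and 17.3 in VO RV. The VO LV libraries lay above the sham LV libraries, and every other pair of groups compared overlapped. The VO LV to sham LV difference was 0.62 (SE 0.19, adjusted p = 0.102) and the sham LV to sham RV difference was -0.45 (SE 0.19, adjusted p = 0.173), neither of which passed. Its responses differed by 0.69 between the ventricles, with an SE of 0.28 and an adjusted p of 0.151 from limma.

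**Figure D1:**
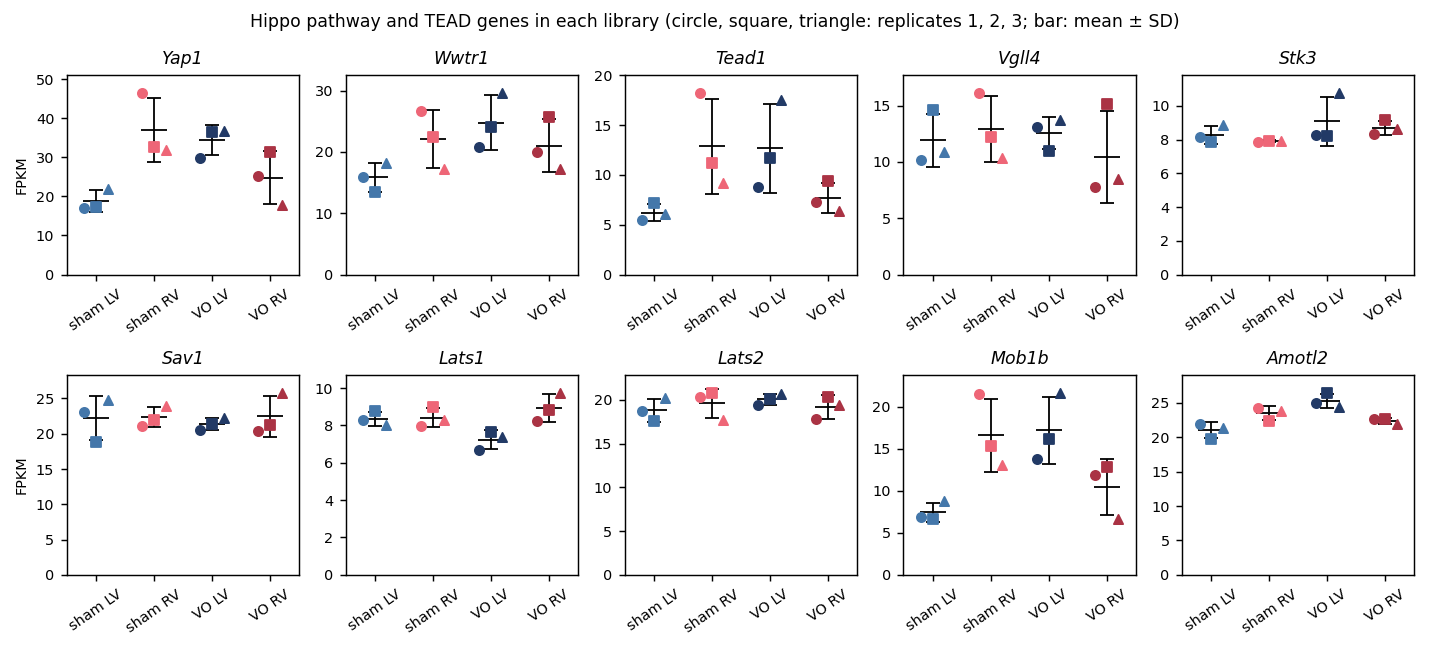
Deposited FPKM of the 10 genes (vertical axes, each from 0) in the 12 libraries, grouped along the horizontal axis by operation and ventricle. Circles, squares and triangles are replicates 1, 2 and 3, and bars show the mean ± SD. Yap1, Tead1 and Mob1b have their lowest means in sham LV, with the highest single value of each in sham RV or VO LV, whereas Lats2 stays between 17.6 and 20.8 in all libraries.

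Tead1 (ENSRNOG00000015488, chromosome 1, 177495782 to 177707061, plus strand) encodes the TEAD factor best known from cardiac muscle promoters. Its FPKM was 5.46, 7.13 and 6.09 in sham LV and 18.3, 11.2 and 9.15 in sham RV. In VO LV it was 8.78, 11.7 and 17.5, and in VO RV 7.29, 9.38 and 6.37. Sham LV was again below sham RV and VO LV without overlap, while VO RV and sham RV overlapped. The spread within sham RV and within VO LV was wide, with means of 12.9 ± 4.78 and 12.7 ± 4.44 (SD, n = 3). None of the pairwise differences passed the test: -0.94 for sham LV against sham RV (SE 0.27, adjusted p = 0.0684), 0.92 for VO LV against sham LV (SE 0.27, adjusted p = 0.0888) and -0.66 for VO RV against sham RV (SE 0.27, adjusted p = 0.579). The difference of the responses was 1.59 (SE 0.38, adjusted p = 0.0449 from limma) and passed. Other annotated genes, LOC691015 and AABR07005040.1, overlap Tead1 in the table's annotation, with mean FPKM of 0.15 and 0.12, and no other member overlaps a gene.

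The genome holds Tead2, Tead3 and Tead4 besides Tead1, whose products bind the same motif. In the order sham LV, VO LV, sham RV, VO RV, Tead2 averaged 14.2, 11.9, 13.7 and 14.7 FPKM, Tead3 9.82, 7.37, 7.85 and 9.55, and Tead4 5.94, 4.66, 4.39 and 4.61. None of the 3 paralogs passed in any comparison. The summed FPKM of the 4 TEAD genes averaged 36.2 in sham LV and 36.6 in VO LV, against 38.8 in sham RV and 36.6 in VO RV. Within that sum the Tead1 share was 17.2% ± 1.07 in sham LV and 34.1% ± 8.93 in VO LV, against 32.7% ± 9.71 in sham RV and 21.2% ± 5.05 in VO RV (SD, n = 3). Its range was 16% to 18.0% in sham LV and 24.8% to 43.5% in sham RV, which did not overlap. Vgll4 (ENSRNOG00000007822, chromosome 4, 146779276 to 146839397, minus strand), whose product competes with YAP1 for TEAD factors, ranged from 10.2 to 14.6 FPKM in sham LV and 10.99 to 13.7 in VO LV, against 10.3 to 16.1 in sham RV and 7.75 to 15.1 in VO RV. All of its groups overlapped, and its largest pairwise difference, -0.33 for VO RV against sham RV, had an adjusted p of 0.704 from limma.

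Mob1b (ENSRNOG00000010996, chromosome 14, 20960052 to 20992753, minus strand) encodes a small adaptor that binds and activates LATS kinases. Its FPKM was 6.93, 6.68 and 8.76 in sham LV and 13.8, 16.1 and 21.6 in VO LV, against 21.5, 15.3 and 13.1 in sham RV and 11.9, 12.8 and 6.68 in VO RV. Sham LV lay below sham RV and VO LV, and VO RV lay below sham RV and VO LV, without overlap in any of these 4 cases. Sham LV was lower than sham RV, with a log2 difference of -1.09 (SE 0.25, adjusted p = 0.0432 from limma). VO LV against sham LV gave 1.14 (SE 0.25, adjusted p = 0.0582) and VO RV against sham RV gave -0.66 (SE 0.25, adjusted p = 0.560), and neither passed. The responses differed by 1.80 (SE 0.36, adjusted p = 0.0312 from limma). Its paralog Mob1a averaged 18.6, 18.3, 18.0 and 18.2 FPKM in sham LV, VO LV, sham RV and VO RV, with differences from -0.04 to 0.04 on the log2 scale.

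The kinases had narrow ranges. Lats1 (ENSRNOG00000014916, chromosome 1, 1784078 to 1817310, plus strand) and Lats2 (ENSRNOG00000056343, chromosome 15, 37943609 to 37983882, minus strand) encode the kinases that phosphorylate YAP1 and WWTR1. Lats1 was the 1 member whose VO LV libraries all lay below those of sham LV: 6.67, 7.63 and 7.40 FPKM against 8.30, 8.75 and 8.01 in sham LV, and also below the 8.24, 8.82 and 9.74 of VO RV. These differences, -0.19 (SE 0.09, adjusted p = 0.238) and -0.29 (adjusted p = 0.317 from limma), did not pass. Lats2 stayed between 17.6 and 20.8 FPKM in the 12 libraries, and its fitted differences lay between -0.06 and 0.12 in all 5 comparisons. Stk3 (ENSRNOG00000011278, chromosome 7, 73618644 to 73883812, minus strand), the kinase at the head of the core cascade, ranged from 7.85 to 8.87 FPKM in sham LV and 8.20 to 10.8 in VO LV, against 7.86 to 7.94 in sham RV and 8.33 to 9.17 in VO RV. The VO RV libraries all lay above the sham RV libraries, with a fitted difference of 0.13 that did not pass. Its paralog Stk4 averaged 4.72 to 5.54 FPKM per group, less than Stk3 in every group. Sav1 (ENSRNOG00000005264, chromosome 6, 92376093 to 92398525, minus strand), the scaffold that binds STK3, ranged from 18.8 to 25.8 FPKM with overlap between all groups.

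Amotl2 (ENSRNOG00000008487, chromosome 8, 111209908 to 111226226, plus strand) encodes an angiomotin that retains YAP1 at cell junctions, and it is itself a known YAP/TEAD target. Its FPKM was 21.9, 19.7 and 21.4 in sham LV and 25.0, 26.4 and 24.4 in VO LV, against 24.3, 22.4 and 23.8 in sham RV and 22.7, 22.6 and 21.9 in VO RV. Although the changes were small, sham LV lay below sham RV and VO LV, and VO LV lay above VO RV, without overlap. The VO LV to sham LV difference was 0.26 (SE 0.07, adjusted p = 0.0829) and the difference of responses 0.33 (SE 0.10, adjusted p = 0.0892 from limma), neither of which passed. Amot, at 1.17 to 1.67 FPKM, and Amotl1, at 10.03 to 13.7 FPKM per group, did not pass in any comparison.

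Counts over the 10 members were read against all 13910 genes tested, where a gene was called at an adjusted p under 0.05 and a fold above 1.3. Sham LV was compared with sham RV to find how the ventricles differ without overload: 2 members, Yap1 and Mob1b, were called, both lower in sham LV, against 3.86% of all tested genes. At an unadjusted p under 0.05 with the same fold cut, together called the unadjusted threshold here, 4 members were lower and 0 higher, where 17.8% of all genes passed. Libraries did not overlap for 4 members, all lower in sham LV, against 32.2% of all genes. The median difference of the members was -0.13, and that of all genes 0.01.

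For VO LV against sham LV, the response of the left ventricle, limma called 0 members against 0.0935% of all genes, and voom on reads recovered from the FPKM called 2, Yap1 and Mob1b, against 2.44% of all genes by voom. At the unadjusted threshold 4 members were higher (Yap1, Mob1b, Tead1 and Wwtr1) against 15.7% of all genes, and Amotl2, higher with an unadjusted p of 0.00421 from limma, fell short of the fold. Groups did not overlap for 5 members that were higher and 1 that was lower, against 32.4% of all genes. For VO RV against sham RV, both limma and voom called 0 members, and each called 0% of all genes. At the unadjusted threshold 3 members were lower (Yap1, Mob1b and Tead1) against 4.91% of all genes, and 2 members were lower and 1 higher without overlap against 12.5%. The 2 ventricles after VO gave 0 members called by limma or voom, each against 0.00719% of all genes, 3 higher in VO LV at the unadjusted threshold (Yap1, Mob1b and Tead1) against 7.4%, and 2 higher and 1 lower without overlap against 16.1%. There Lats1, lower in VO LV, had the smallest unadjusted p of the members, 0.0107, and Amotl2, higher, had 0.0433 from limma, both short of the fold. The exact two-sided permutation test on 3 against 3 libraries cannot go below p = 0.1, which it gave for each of these non-overlapping pairs.

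The difference of the LV and RV responses was called for 3 members, Yap1, Mob1b and Tead1, against 4.19% of all genes, and 4 members passed the unadjusted threshold against 23.1%, with Amotl2 (unadjusted p of 0.00913 from limma) short of the fold. All of these were more positive in the LV, as were 481 of the 583 genes called. The sham LV libraries enter both the first comparison and the LV response, and the sham RV libraries enter the first comparison and the RV response, so these comparisons are not independent of each other. These calls depended on single libraries. Leaving out 1 of the 12 libraries at a time kept the Yap1 call in sham LV against sham RV in 5 cases and that of Mob1b in 4, with the highest adjusted p, 0.143 and 0.162, without sham RV 1. The call on the difference of responses was kept in 5 cases for Yap1, 6 for Mob1b and 3 for Tead1, with the highest adjusted p, 0.0916, 0.0895 and 0.116 from limma, without VO LV 3. No omission turned the direction of these differences, which for Yap1 ranged from 1.23 to 1.63.

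**Figure D2:**
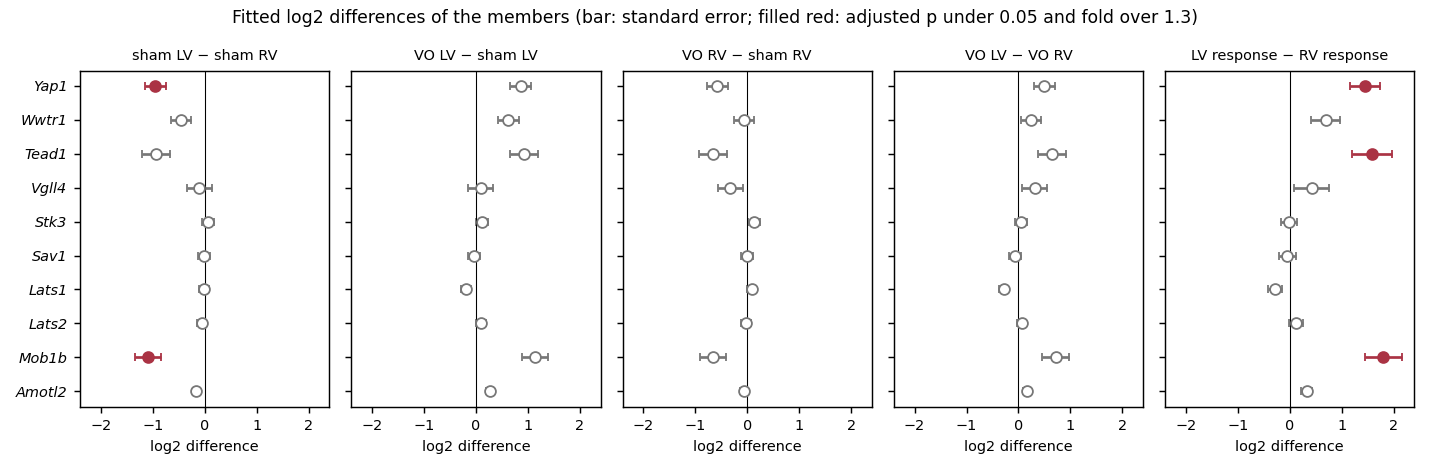
Fitted log2 differences ± standard error of the 10 genes (vertical axis) in the 5 comparisons (panels), with filled points for genes called at an adjusted p under 0.05 and a fold above 1.3. Filled points appear for Yap1 and Mob1b in sham LV against sham RV and for Yap1, Mob1b and Tead1 in the difference of the responses, Lats2, Stk3 and Sav1 differ from 0 by at most 0.13 as rounded, and Lats1 reaches -0.29 in VO LV minus VO RV.

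**Figure D3:**
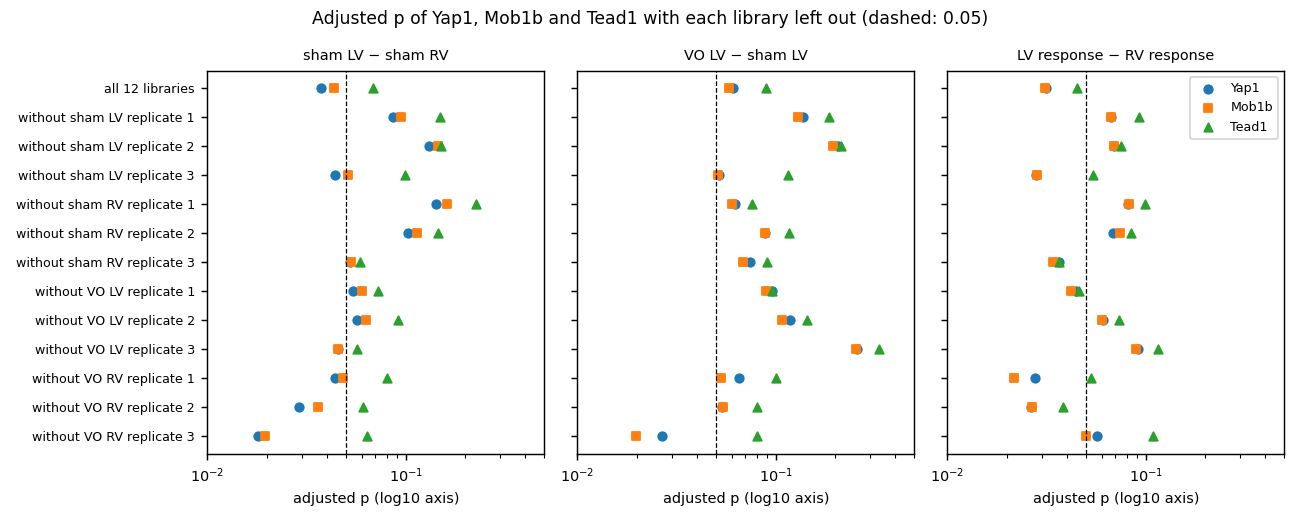
Adjusted p from limma (horizontal log10 axis, dashed line at 0.05) of Yap1, Mob1b and Tead1 with all 12 libraries and with each library left out in turn (vertical axis), in 3 comparisons (panels). In sham LV against sham RV, Yap1 runs from 0.0180 without VO RV 3 to 0.143 without sham RV 1, on both sides of the line.

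Across the 12 libraries the levels of the 3 genes moved together. Pearson's r of the log2 values was 0.974 between Yap1 and Mob1b, 0.926 between Mob1b and Tead1 and 0.903 between Yap1 and Tead1. It was 0.855 between Yap1 and Wwtr1, 0.148 between Yap1 and Stk3, -0.182 between Yap1 and Sav1 and -0.444 between Yap1 and Lats1. The points share libraries, scaling and the 4 groups. Such likeness to Yap1 is not rare, since 2.57% of the other 13909 tested genes reached an r of at least 0.9 with it, 3.51% with Mob1b and 1.02% with Tead1. The 5 genes most like Yap1 over the 12 libraries were Dnajc5 (r of 0.985), Wdtc1 (0.981), Klf13 (0.977), LOC102554591 (0.977) and Csnk2a1 (0.976). Those most like Tead1 were Larp4b (0.970), Rn60_8_0651.1 (0.966), Palm2 (0.966), Ryr2 (0.964) and Hif1an (0.960). For Lats2 they were Slc33a1 (0.890), Zcchc6 (0.887), Inpp4b (0.884), Slc35f1 (0.881) and Ptdss1 (0.877).

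**Figure D4:**
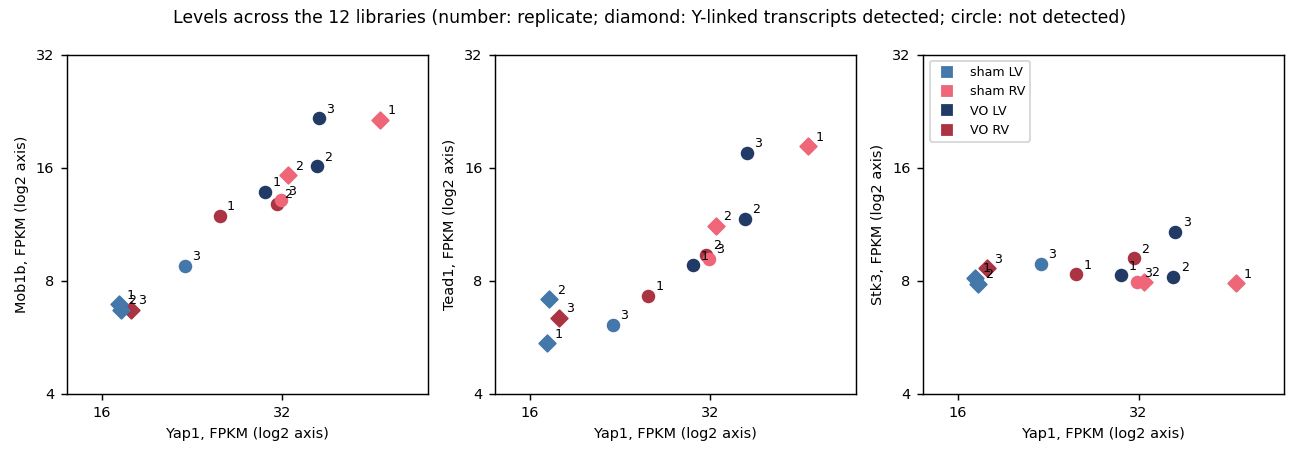
FPKM of Mob1b, Tead1 and Stk3 (vertical log2 axes, 1 panel each) against FPKM of Yap1 (horizontal log2 axes), 1 point per library with its replicate number, coloured by group, and diamonds where Y-linked transcripts were detected. Mob1b and Tead1 rise with Yap1 from sham LV at the lower left to sham RV 1 at the right, whereas Stk3 stays between 7.85 and 10.8 FPKM.

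The wider pathway was described by a list of 54 further genes, of which 51 were tested. In sham LV against sham RV, 3 were called, all lower in sham LV, against the 3.86% of all genes: Wwc1, an upstream activator of LATS kinases (-0.85, adjusted p = 0.0319), Ptpn14, a phosphatase that binds YAP1 (-0.83, adjusted p = 0.0325), and Slmap, which brings the STRIPAK phosphatase to STK3 and STK4 (-0.71, adjusted p = 0.0361 from limma). At the unadjusted threshold 2 were higher and 7 lower, 9 of 51 where 17.8% of all genes passed. Slmap had 48.6, 34.3 and 47.7 FPKM in sham LV and 73.5, 74.7 and 64.5 in sham RV. In the difference of responses 4 were called against 4.19% of all genes, all more positive in the LV: Slmap (0.97, adjusted p = 0.0358), the 14-3-3 gene Ywhag (0.74, adjusted p = 0.0373), Ptpn14 (0.89, adjusted p = 0.0471) and Limd1, an inhibitor of LATS kinases (1.06, adjusted p = 0.0491 from limma). At the unadjusted threshold 11 were more positive and 2 more negative in the LV, 13 of 51 where 23.1% of all genes passed. Limma called 0 of the 51 in the other 3 comparisons. At the unadjusted threshold 5 were higher and 1 lower in VO LV than in sham LV, 6 of 51 where 15.7% of all genes passed, and voom called 3 against 2.44% of all genes. The genes with the smallest p there were Ptpn14 (0.75, adjusted p = 0.0534), Slmap (0.64, adjusted p = 0.0601) and Limd1 (0.77, adjusted p = 0.0659 from limma). For VO RV against sham RV, 0 were higher and 2 lower unadjusted against 4.91% of all genes, and the smallest p belonged to Strn, a STRIPAK subunit (-0.64, adjusted p = 0.542), Rassf1, a binding partner of STK3 (0.35, adjusted p = 0.549), and the kinase Tnik (-0.63, adjusted p = 0.555 from limma). For VO LV against VO RV, 2 were higher and 2 lower unadjusted against 7.4%, and the smallest p belonged to Frmd6 (-0.38, adjusted p = 0.322), Rassf2 (-0.42, adjusted p = 0.344) and Tead2 (-0.29, adjusted p = 0.385 from limma), with voom calling 0 in both. The median over the 51 genes lay between -0.05 and 0.00 in the 5 comparisons.

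Targets of YAP and TEAD were followed in a list of 22 genes, 21 of them tested, which shares Amotl2 and Lats2 with the members. It also shares Ptpn14 with the list of further pathway genes, so the calls of Ptpn14 count in both lists. In sham LV against sham RV only Ptpn14 was called (2.4, 2.22 and 3.19 FPKM in sham LV against 5.54, 4.27 and 5.13 in sham RV), 1 of 21 where 3.86% of all genes were called, and 6 were lower unadjusted against 17.8% of all genes. The next smallest p belonged to Ankrd1, a cardiac stretch-response gene (-0.53, adjusted p = 0.0508), and F3, tissue factor (-0.68, adjusted p = 0.0665 from limma). For VO LV against sham LV, limma called 0, voom 2 against 2.44% of all genes, and 6 were higher unadjusted against 15.7%. Ptpn14, Ankrd1 (0.58, adjusted p = 0.0603) and Amotl2 had the smallest p.

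Among the canonical targets, the matricellular genes Ctgf and Cyr61 had their highest levels in VO RV. Ctgf had 35.6, 14.9 and 16.8 FPKM in sham LV and 45.1, 35.1 and 51.4 in VO LV, against 52.7, 30.7 and 33.5 in sham RV and 87.9, 58.1 and 72.6 in VO RV. All 3 VO RV libraries lay above all others, whereas the Yap1 mean of VO RV was below that of sham RV. Ctgf differed by 1.05 between VO LV and sham LV (SE 0.31, adjusted p = 0.0902) and by 0.92 between VO RV and sham RV (SE 0.31, adjusted p = 0.542 from limma), and neither passed. Cyr61 had 13.6, 10.9 and 15.0 FPKM in sham LV and 15.5, 16.3 and 18.2 in VO LV, against 16.97, 13.1 and 16.96 in sham RV and 20.9, 28.3 and 25.3 in VO RV. Its VO RV libraries lay above those of every other group, with a difference of 0.65 from sham RV (SE 0.15, adjusted p = 0.482) and of -0.56 for VO LV against VO RV (SE 0.15, adjusted p = 0.257 from limma). Ankrd1 averaged 594 ± 79.2 FPKM in sham LV and 891 ± 146 in VO LV, against 855 ± 6.81 in sham RV and 898 ± 63.9 in VO RV (SD, n = 3), so its RV mean changed by 0.07 on the log2 scale. For VO RV against sham RV, limma and voom called 0 targets and 2 were higher unadjusted against 4.91% of all genes, Cyr61 and Ctgf, with Gadd45a next (-0.36, adjusted p = 0.587 from limma). For VO LV against VO RV, both called 0, with 1 higher and 5 lower unadjusted against 7.4% of all genes, and Cyr61, Myof (-0.57, adjusted p = 0.257) and Gadd45a (0.55, adjusted p = 0.280 from limma) had the smallest p. In the difference of responses 1 target, Ptpn14, was called against 4.19% of all genes, and Arhgef17 (0.66, adjusted p = 0.0672) and Crim1 (0.75, adjusted p = 0.0861 from limma) followed, while Ctgf gave 0.13 and Cyr61 -0.31.

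**Figure D5:**
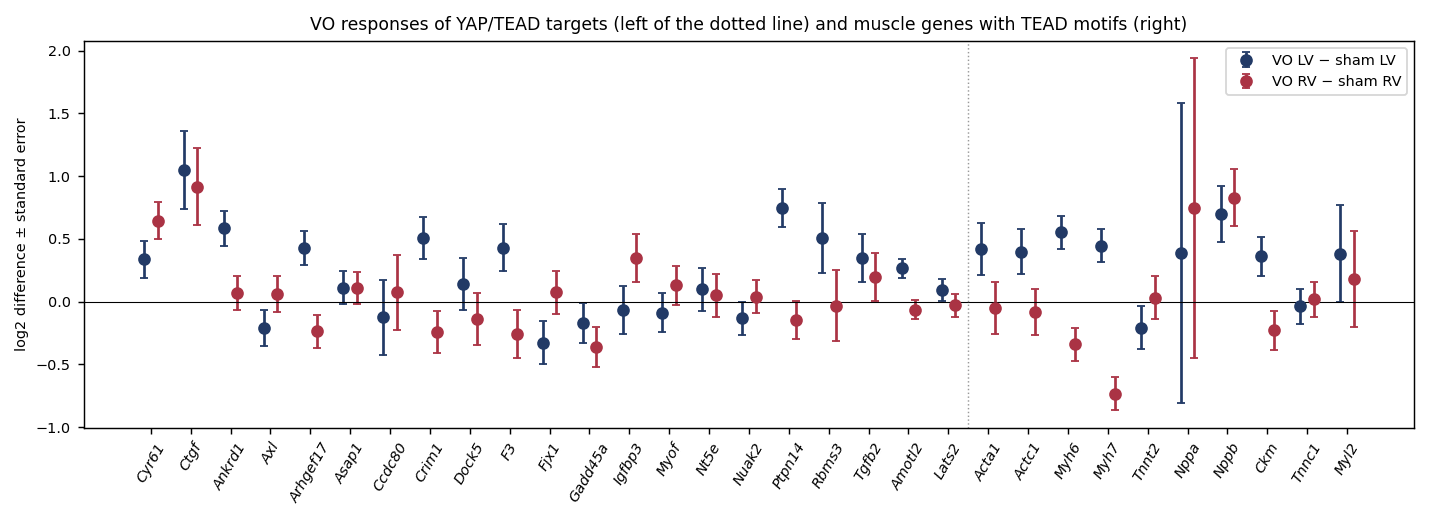
Fitted log2 differences ± standard error for VO LV minus sham LV (blue) and VO RV minus sham RV (red) of the 21 YAP/TEAD targets tested (left of the dotted line) and 10 muscle genes (right). Ctgf is above 0 in both ventricles, whereas Myh6 and Myh7 are above 0 in the LV and below 0 in the RV.

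Muscle genes whose promoters are known for TEAD-binding motifs formed a list of 10, all tested. In sham LV against sham RV, Nppb, the gene of B-type natriuretic peptide, was called as higher in sham LV against 3.86% of all genes (1.20, adjusted p = 0.0325 from limma), with 211, 240 and 229 FPKM against 130, 67.1 and 109. The myosin heavy chain genes Myh6 (-0.50, adjusted p = 0.0538) and Myh7 (-0.46, adjusted p = 0.0674 from limma) were next. In the difference of responses both myosin genes were called against 4.19% of all genes, Myh7 at 1.18 (SE 0.18, adjusted p = 0.0249) and Myh6 at 0.89 (SE 0.18, adjusted p = 0.0319 from limma), with the creatine kinase gene Ckm next (0.59, adjusted p = 0.130). Without sham LV 1, sham LV 2, sham RV 1, VO LV 2 or VO LV 3, each alone, limma called 0 of all genes for this difference, the myosin genes included, and without sham RV 1 it called 0 in sham LV against sham RV, Nppb included. Myh7 had 796, 815 and 857 FPKM in sham LV and 1131, 966 and 1280 in VO LV, against 1132, 1251 and 1018 in sham RV and 725, 598 and 720 in VO RV. Sham LV was thus below sham RV, VO LV above sham LV, and VO RV below sham RV, the order also seen in Yap1 and Mob1b. In the other 3 comparisons limma called 0 of the 10, and at the unadjusted threshold 3 were higher in VO LV than in sham LV against 15.7% of all genes, 1 was higher and 1 lower in VO RV than in sham RV against 4.91%, and 4 were higher in VO LV than in VO RV against 7.4%. The smallest p belonged to Myh6 (0.55, adjusted p = 0.0610), Myh7 (0.45, adjusted p = 0.0888) and Nppb (0.70, adjusted p = 0.109 from limma) in the LV response. In the RV response it belonged to Myh7 (-0.73, adjusted p = 0.366), Nppb (0.83, adjusted p = 0.536) and Myh6 (-0.34, adjusted p = 0.560 from limma). Between the ventricles after VO these were Myh7 (0.72, adjusted p = 0.203), Nppb (1.07, adjusted p = 0.239) and the skeletal actin gene Acta1 (0.70, adjusted p = 0.281 from limma).

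Several library measures moved with the groups or with single libraries. Depth was 14121713 to 16871371 reads on genes, and the members had from 148 (Vgll4) to 2057 (Amotl2) reads per library. In bulk tissue, fewer cells of a type and less RNA per cell cannot be told apart. Of 8 cardiomyocyte markers 7 were in the table and abundant, with summed FPKM of 12768 to 13513 in sham LV and 12426 to 13160 in VO LV, against 10833 to 12474 in sham RV and 8934 to 12989 in VO RV. The list members did not move alike, as Tnnt2, the most abundant, averaged 5307 FPKM in sham LV and 4299 in sham RV, whereas Myh6 averaged 1614 and 2281. Endothelial markers summed to 511 to 557 FPKM in sham LV, above the 371 to 394 of sham RV, 397 to 446 of VO LV and 369 to 469 of VO RV, so that the group with the lowest Yap1, Mob1b and Tead1 had the highest endothelial sum. Mural (540 to 704 against 469 to 516), macrophage (106 to 118 against 75.1 to 90.5) and red blood cell markers (9614 to 13173 against 4894 to 8156) were also higher in sham LV than in sham RV without overlap. Atrial markers summed to 1522 in VO RV 2 and 440 in sham RV 1, against 148 to 306 in the others, and fibroblast markers to 4935 and 3640 in the same 2 libraries. Fibroblast sums were otherwise 2063 to 2543 in VO LV, all below the 2594 to 2789 of sham LV, and 2533 to 3045 in the other RV libraries. Epicardial markers summed to 31.8 to 40.1 in sham LV and 28.1 to 38.4 in VO LV, against 38.9 to 48.5 in sham RV and 36.6 to 70.4 in VO RV. Sham RV 1 also had the highest Yap1 and Tead1. Without sham RV 1 alone, 0 members were called in any comparison, and limma called 0 of all genes in sham LV against sham RV and 0 for the difference of responses. Without VO RV 2 alone, 2 and 3 members were called in these comparisons, with 739 and 926 of all genes. Their part in the result was not tested.

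Y-linked transcripts divided the libraries too. They were detected, at 56.1 to 64.9 summed FPKM, in sham LV 1 and 2, sham RV 1 and 2 and VO RV 3, and stood at 0.19 to 0.37 in the other 7, including all of VO LV. Among the libraries without them, Yap1 was 22 FPKM in 1 sham LV library and 31.8 in 1 sham RV library, and averaged 34.5 in VO LV and 28.3 in 2 VO RV libraries. Among those with them it averaged 17.2 in sham LV and 39.6 in sham RV, and was 17.9 in VO RV 3. Within either state Yap1 was lower in sham LV than in its RV counterpart and lower in VO RV than in sham RV, as were Mob1b and Tead1. These sham and VO RV sets hold 1 or 2 libraries each. Among libraries without the transcripts Wwtr1 went the other way, at 18.2 in sham LV, 17.2 in sham RV and a mean of 22.9 in VO RV. So did Vgll4, at 10.9, 10.3 and 11.4. VO LV could be set against sham LV only where the transcripts were not detected. With a Y-linked term in the limma model, 2 members stayed called in sham LV against sham RV, where 478 of all genes were called (537 without the term), and 1, Yap1, in the difference of responses, where 176 were called (583 without it). Mitochondrial genes took 14.4% to 26.2% of reads, and r with that share over the 12 libraries was -0.411 for Yap1, -0.404 for Mob1b and -0.538 for Tead1.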

How the data were processed

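RNA was sequenced from 12 libraries (NEBNext Ultra RNA kit after poly(A) selection), and the submitters' processing notes name HISAT2 2.0.5 for alignment and featureCounts 1.5.0-p3 for counting. The genome build, annotation and strandedness are not given in the sources used here, so reads of genes that overlap on opposite strands may not be told apart. The deposited table holds FPKM, calculated by the authors from gene counts and gene length, and multiplying back gave whole reads (tolerance 0.02) for 100% of values under 200 reads, on which voom called 684 genes in sham LV against sham RV, 339, 0 and 1 in the next 3 comparisons, and 804 for the difference of responses. Libraries were rescaled by median-ratio size factors of 1.00 to 1.01, so the deposited FPKM were already alike by this measure. This step moved no member call. Values were tested as log2(FPKM + 0.5), which understates changes of low genes, in 13910 genes averaging 0.5 FPKM or more, with limma 3.58.1 (R 4.3.3) in 1 model of the 4 groups, mean-variance trend and Benjamini-Hochberg adjustment. Genes were called at an adjusted p under 0.05 and a fold above 1.3. Fold changes and differences are on this log2 scale.

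Whether replicate numbers pair LV and RV libraries of an animal is not given by the labels, so they were not used as a block in the main model. Y-linked transcripts differed between VO LV 3 and VO RV 3, so that pair cannot share an animal. Members and lists were chosen with earlier results of these data known. All members are named, and from each list the 3 genes with the smallest p in each comparison, the paralogs of members, and Ctgf, Cyr61 and Ankrd1. List genes not matched by name (Frmd1, Foxf2) and Vgll1 and Vgll2, below the filter, were not tested. The alternatives are rescaling, pseudocount, filter, robust and weighted fits, voom on recovered reads, covariates, replicate blocks, and omission of libraries.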

Additional observations from a re-analysis of the deposited data

Results flagged for a closer look

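The LV and RV responses to VO differed, by the test of the difference itself (limma, adjusted p under 0.05), for 9 genes of the lists, each more positive in the LV. Over all 13910 genes 4.19% were called, 481 of the 583 also more positive in the LV, and without sham LV 1, sham LV 2, sham RV 1, VO LV 2 or VO LV 3, each left out alone, 0 of all genes were called, so that all 9 lost their call. On the log2 scale the difference was 1.44 for Yap1, 1.59 for Tead1 and 1.80 for Mob1b among the members. Among other pathway genes it was 1.06 for Limd1, 0.89 for Ptpn14, 0.97 for Slmap and 0.74 for Ywhag. The myosin genes Myh6 and Myh7 gave 0.89 and 1.18.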

How the results depend on the processing

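Of 1370 member values under the alternatives, 1336 kept the direction of the reported value, and the 34 that did not had a reported size of at most 0.12. Counts of calls moved more. Calls over all tested genes are given beside the member counts. Testing all 21603 genes above 0, or adding a replicate block across treatments, gave 0 calls among members, other Hippo genes and targets in all 5 comparisons (over all genes 8 and 3 in sham LV against sham RV and 21 and 1 for the difference of responses). A block within treatment gave 0 in the 3 it was run for (the ventricles compared in sham, the ventricles compared after VO, and the difference of responses), with 0, 1 and 0 over all genes. Correlations of same-numbered libraries ran from -0.219 to 0.123. Taken as deviations from means of 3 libraries, they cannot decide whether same-numbered LV and RV libraries share an animal. Y-linked transcripts matched by number in sham, but were detected in VO RV 3 and not in VO LV 3. Leaving out sham RV 1 and VO RV 2 together, chosen after seeing the data, also gave 0, with 9 and 2 over all genes, but sham RV 1 alone did so too.

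In sham LV against sham RV, members called were 2, other Hippo genes 3 and targets 1, of 537 over all genes. An atrial covariate left 1 member (344 over all genes), and array weights called 3, adding Tead1 (adjusted p of 0.0367 from limma, 1321 over all genes). Quantile normalization gave 5 other Hippo genes and 2 targets (636 over all genes), and fitting only the groups compared gave 0 of both (314 over all genes). Targets were 2 with mean FPKM of at least 1, voom or the length trend removed (597, 684 and 469 over all genes) and 3 with array weights. Leaving out 1 library gave 0 to 2 members, 0 to 5 other Hippo genes and 0 to 4 targets, with 0 to 872 over all genes.

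In VO LV against sham LV all 3 counts were 0, of 13 over all genes. Members called were 2 with array weights, voom, an atrial covariate or only the groups compared, fits that called 704, 339, 324 and 119 of all genes. Other Hippo genes were 1 with mean FPKM of at least 1 (183 over all genes) or an atrial covariate, 3 with voom and 4 with array weights. Targets were 1 with mean FPKM of at least 1 and 2 with array weights, voom or an atrial covariate. Single omissions gave 0 to 2 members, 0 to 4 other Hippo genes and 0 to 2 targets, with 0 to 555 over all genes. Without VO RV 3, Yap1 and Mob1b passed (adjusted p of 0.0267 and 0.0197 from limma), where 555 of all genes were called against 13 with all libraries.

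For the difference of responses, members called were 3, other Hippo genes 4 and targets 1, of 583 over all genes. A Y-linked covariate gave 1, 0 and 0 (176 over all genes), and an atrial covariate 7 other Hippo genes and 3 targets (1213). With the length trend removed 2 other Hippo genes and 0 targets were called (393 over all genes), and array weights gave 2 targets (1047 over all genes). Single omissions gave 0 to 3 members, 0 to 6 other Hippo genes and 0 to 2 targets, with 0 to 1004 over all genes. In VO LV against VO RV they gave 0 to 1 targets and 0 of the others, with 1 to 48 over all genes. In VO RV against sham RV they gave 0 for all 3 lists, with 0 to 1 over all genes.

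With 3 libraries a group and adjusted p values near 0.05, omission of most single libraries ended at least 1 member call. Members lost both calls in sham LV against sham RV without sham LV 1 or 2, any of sham RV 1 to 3, or VO LV 1 or 2, and all 3 calls of the difference without sham LV 1 or 2, sham RV 1 or 2, or VO LV 2 or 3. Over all genes these omissions called 0 to 5 in sham LV against sham RV, except 185 without sham RV 3 and 173 without VO LV 1, and 0 to 4 for the difference. The fitted Yap1 difference in sham stayed between -1.07 and -0.78. The cause was not tested.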
